A study of Drosophila melanogaster with 2 samples.

Results

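The proteasome subunit genes of Drosophila melanogaster were examined for binding by Adf1, a transcription factor of the MADF domain family. They were taken as the protein-coding genes whose symbols begin with Rpn, Rpt, Prosalpha or Prosbeta, which gave 48 of 13968 protein-coding genes. Of these, 25 encode parts of the core particle and 23 parts of the regulatory particle. By symbol, 32 are standard subunits and 16 are R or T paralogues, copies marked by an R or a T after the subunit number. The data are chromatin immunoprecipitation sequencing (ChIP-seq) peaks from whole embryos aged 0 to 24 h, in 2 biological replicates. The flies carried a transgene for Adf1 fused to eGFP, a green fluorescent protein, and per the labels an anti-GFP antibody pulled down the fusion, although their antibody field reads Adf1. All samples formed 1 group of 1 strain, control libraries were not analysed here, and no conditions were compared. Whether the flies also kept untagged Adf1 is not given in the labels. Whole embryos mix all cell types, so binding in few cells and weak binding in many cannot be told apart. The lists hold peaks and no read counts, and the sequencing depth is therefore unknown.

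The proteasome degrades proteins that carry ubiquitin chains. Its core particle is a barrel of stacked rings, with outer rings of alpha subunits that gate the entrance and inner rings of beta subunits, among which beta1, beta2 and beta5 cut peptide bonds. The regulatory particle caps the barrel. Its base holds a ring of Rpt ATPases, which unfold substrates, with the scaffolds Rpn1 and Rpn2 and the ubiquitin receptors Rpn10 and Rpn13, and its lid holds the deubiquitinase Rpn11 with Rpn3, Rpn5 to Rpn9 and Rpn12. In Drosophila, several of the R and T paralogues are known to be expressed mainly in the testis.

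A gene was counted as bound where the summit of a peak was at most 500 bp from one of the gene's transcription start sites (TSSs). In the conservative list, called by the authors across both replicates, 5 of 48 members were bound (10.4%, 95% Wilson interval 4.53 to 22.2%), against 18.9% of all protein-coding genes. They were Rpn1, Rpn3, Rpn6, Rpn9 and Rpt5, all of the regulatory particle (5 of 23, 21.7%, 95% Wilson interval 9.66 to 41.9%). Of the 25 core genes, 11 of them paralogues, 0 were bound, a count that allows a share of up to 12%. For the 14 standard core genes alone, the limit was 21.4%, above the 18.9% of all genes. Of the 16 R and T paralogues 0 were bound, which allows up to 18.8%. For counts of 0, each such limit is 3 divided by the number of genes and not a Wilson bound. The 95% Wilson upper bounds were 13.3% for core genes, 21.5% for standard core genes and 19.4% for paralogues. For paralogues, the 18.9% of all genes thus lay between the limit and the Wilson bound. These intervals and limits cover counting error only. The difference between the particles was not tested. Any TSS of a gene counted, and genes with more TSSs were bound more often. Over all genes the share was 13.1% with 1 TSS, 28.3% with 2 and 49.7% with 3 or more. Of the members, 36 had 1 TSS (2 bound), 11 had 2 (3 bound: Rpn3, Rpn6 and Rpn9) and 1 had 3 or more (0 bound). The part of TSS number in the shares of the groups was not tested. The share of members was below that of all genes, but the 18.9% of all genes lay inside the members' interval. With the 16 paralogues left out the share was 15.6% (5 of 32, 95% Wilson interval 6.86 to 31.8%), and 18.9% lay inside that interval too.

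The longer and the single-replicate lists changed which subunits were included. In the authors' other thresholded list for both replicates, here called the optimal list, 7 of 48 members were bound, against 23.2% of all genes, with Prosbeta2 and Rpn13 added to the 5. In replicate 1's own list 4 were bound, against 14.3%, and they were Rpn3, Rpn5, Rpn6 and Rpt5. In replicate 2's own list 7 were bound, against 23.2%, and they were the 5 conservative genes with Prosalpha7 and Rpn13. Rpn3, Rpn6 and Rpt5, 3 of the 48 members, were bound in all 4 lists, as were 12.4% of all genes. In at least 1 of the 4 lists 9 of 48 were bound, against 26.8% of all genes.

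**Figure D1:**
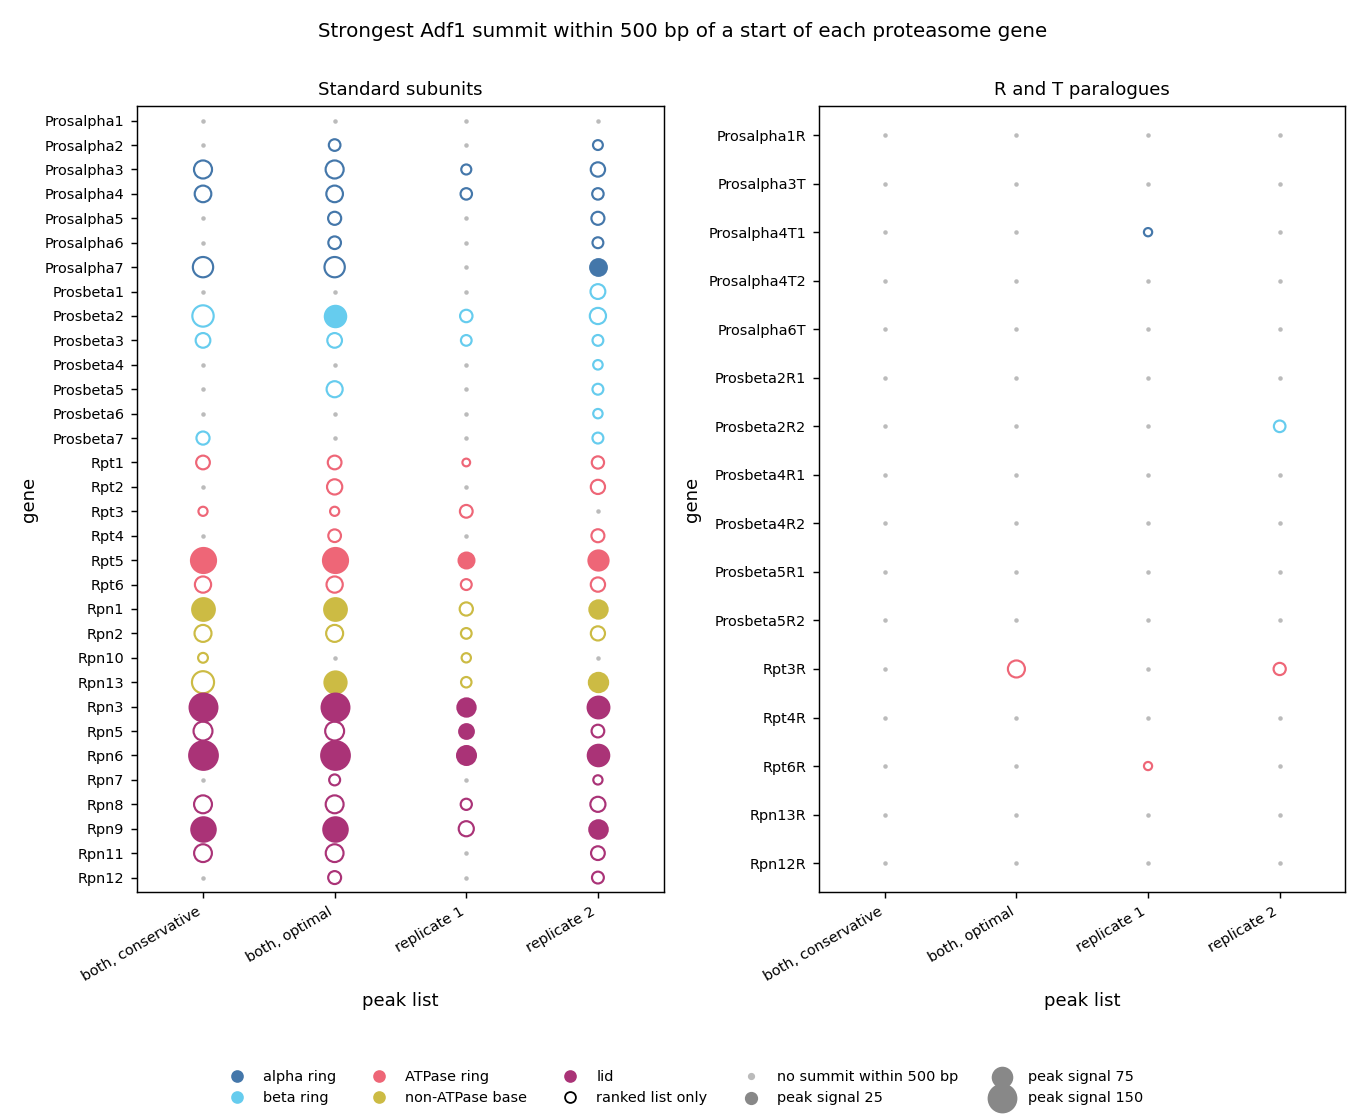
Strongest summit within 500 bp of a TSS for each gene (rows) in the lists of both replicates and of each replicate (columns). Circle area is the authors' peak signal, filled circles are in the thresholded list, open circles only in the longer ranked list, and grey dots mark genes with no summit in either. Rpn3, Rpn6 and Rpt5 are filled in all 4 columns, and 12 of the 16 R and T paralogues have grey dots throughout.

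The lid held 3 of the 5 genes bound in the conservative list. Rpn6 (FBgn0028689), a lid subunit that helps to hold lid, base and core together, had the highest peak signal of any member, 157 in chr2R:14752110-14752619. The signal is the authors' value per peak, in units the sources do not define, and is used here to order peaks within a list. That peak was ranked 2067 of 4370. In the replicates' own lists the Rpn6 signal was 68.2 in replicate 1 and 88.1 in replicate 2. Its summit lay 94 bp upstream of an internal start of Rpn6, in an intron of the gene's longer transcript, and not near the outermost start.

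Rpn3 (FBgn0261396), a lid subunit, had a signal of 148 in chr2L:19051526-19052035, of 63.5 in replicate 1 and of 90.5 in replicate 2. Its summit was 9 bp upstream of the TSS in the conservative list and 18 bp upstream in replicate 1. In replicate 2 it was 31 bp downstream, in the 5' UTR. The replicates' summits were thus 49 bp apart, on either side of the start.

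Rpn9 (FBgn0028691), another lid subunit, had a signal of 114 in chr3R:23732860-23733369, with a summit 104 bp upstream of an internal start. Replicate 2's own list held it with a signal of 65.0. In replicate 1 it was in the ranked list alone, the longer list that holds every peak of the thresholded one, with a signal of 43.8. The authors ranked peaks by the irreproducible discovery rate (IDR), and its scaled score ran to 1000 and was at least 830 in every thresholded list. Rpn9's score of 781 in replicate 1 lay below that minimum.

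Rpn5 (FBgn0028690), also of the lid, was past the threshold in replicate 1's own list alone, with a signal of 41.0 and a score of 887. The summit was 320 bp upstream of Rpn5, in an intron of its divergent neighbour Hat1, a histone acetyltransferase gene, and 99 bp from an internal start of Hat1, so the nearest start was not that of the proteasome gene. Replicate 2's ranked list placed a summit 2 bp away, with a signal of 30.9 and a score of 128. Both replicates thus held a summit at that position, with scores on either side of the threshold.

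In the base, Rpt5 (FBgn0028684), an ATPase of the unfolding ring, had a signal of 120 in chr3R:23752596-23753105, of 48.1 in replicate 1 and of 77.3 in replicate 2. Its summits lay 2 to 25 bp upstream of the TSS in the 4 lists. Rpn1 (FBgn0028695), the scaffold that binds ubiquitin shuttle proteins, had a signal of 98.1 in chr3L:19914761-19915270, 35 bp upstream of its TSS. Replicate 2's own list held Rpn1 with a signal of 63.7. In replicate 1 it was in the ranked list alone, with a signal of 33.5 and a score of 590.

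Rpn13 (FBgn0033886), a ubiquitin receptor, was called in the optimal list with a signal of 93.6, 37 bp upstream of its start, and in replicate 2 with a signal of 70.9. In replicate 1's ranked list the strongest summit in range had a signal of 21.0 and lay 226 bp from that of replicate 2, at the annotated start of the divergent gene CtsL1, which encodes a cathepsin. The strongest summits of the replicates thus lay at different ends of this intergenic region. Replicate 2 held 2 summits in range of Rpn13, and the position of the weaker one was not examined.

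Among core genes, Prosbeta2 (FBgn0023174), which encodes a catalytic subunit, was called in the optimal list with a signal of 87.3, 119 bp upstream of its TSS. In the ranked conservative list the same peak had a score of 807, just under the minimum. Signals in the ranked lists of replicates 1 and 2 were 29.7 and 50.4. Prosalpha7 (FBgn0023175), of the alpha ring, was called in replicate 2's own list with a signal of 53.2, 45 bp upstream of its TSS, and had no summit in range in replicate 1's ranked list.

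Signals at 4 of the 5 bound members were below the median of bound genes. This median signal was 153 over 2636 genes in the conservative list, counting the strongest summit of each. Rpn6, at 157, was the only one of the 5 members above it, with 51.7% of bound genes below. For Rpn1 that share was 14.5%. Peak intervals gave no further distinction, since all 5 were 510 bp wide, which was also the median over all bound genes. By distance, no member lay near the 500 bp limit in the conservative list: the farthest bound member was Rpn9, 104 bp from a start, and the nearest unbound ones were Prosbeta6 at 1123 bp, Rpn11 at 1471 bp and Rpn2 at 1667 bp.

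**Figure D2:**
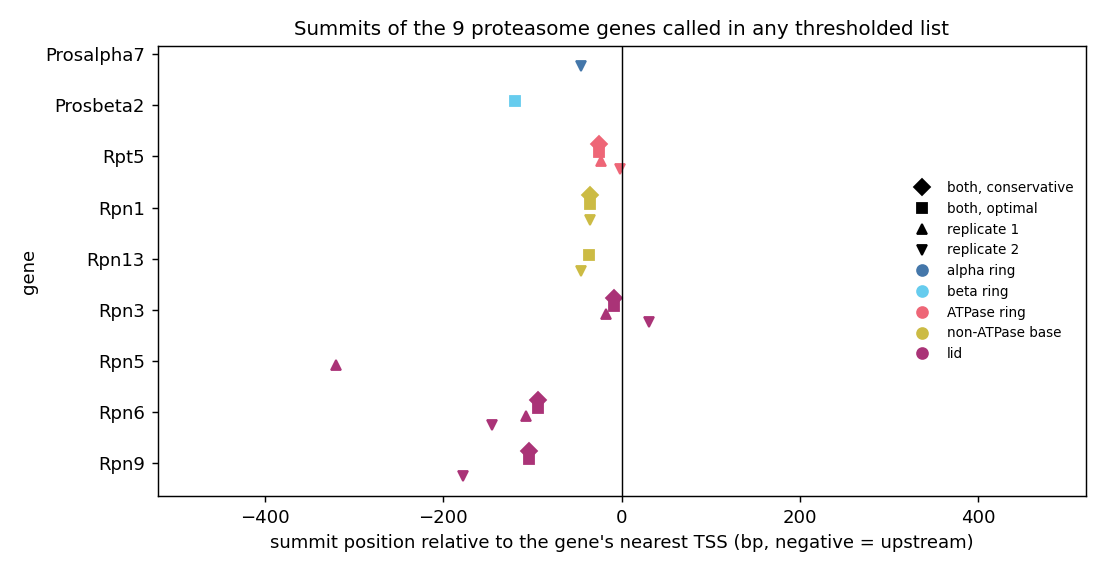
Position of the strongest summit relative to the nearest TSS of the gene (horizontal axis, bp) for the 9 members called in any thresholded list, with 1 marker per list and colours for the subcomplex. Of the 23 summits, 22 lie upstream of the start, and the exception is Rpn3 in replicate 2. They are repeats of 9 genes over overlapping lists, and 74.0 to 82.6% of all bound genes' summits lie upstream in the same lists.

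Below the threshold, nearly all standard subunits and few paralogues had a ranked peak near a start. A further 22 standard subunits had a summit in range in ranked lists alone, so that 31 of 32 had one in at least 1 list. Prosalpha1 was the standard subunit with none. Among the 16 paralogues 4 had one (Prosalpha4T1, Prosbeta2R2, Rpt3R and Rpt6R), each in the ranked list of 1 replicate and not of the other, and 12 had none. Over all protein-coding genes 70.2% had a summit in range in at least 1 list. The highest signals in the ranked conservative list among members never past the threshold were 62.4 at Prosalpha3, 61.4 at Rpn8, 60.7 at Rpn11, 55.3 at Rpn2 and 52.9 at Prosalpha4. Rpn8 is the partner of Rpn11 in the lid, and Prosalpha3 and Prosalpha4 belong to the alpha ring.

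Counts of standard subunits depended on the replicate. In replicate 2's ranked list 29 of 32 had a summit in range, against 64.1% of all genes, with 13 of 14 core and 16 of 18 regulatory genes. In replicate 1's ranked list 17 of 32 did, against 47.3%, with 4 of 14 core and 13 of 18 regulatory genes. The ranked list of replicate 2 held 61558 summits and that of replicate 1 held 27397, and the part of this length difference in the counts was not tested. Of the 32, 15 had a summit in range in the ranked lists of both replicates, against 42.7% of all genes, and all 15 had one in the ranked conservative list too. That list had one for 20 of 32 standard subunits, against 51.4% of all genes, and for none of the paralogues. The ranked optimal list had one for 26 of 32 and for 1 paralogue, Rpt3R (signal 55.5), against 56.8%.

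**Figure D3:**
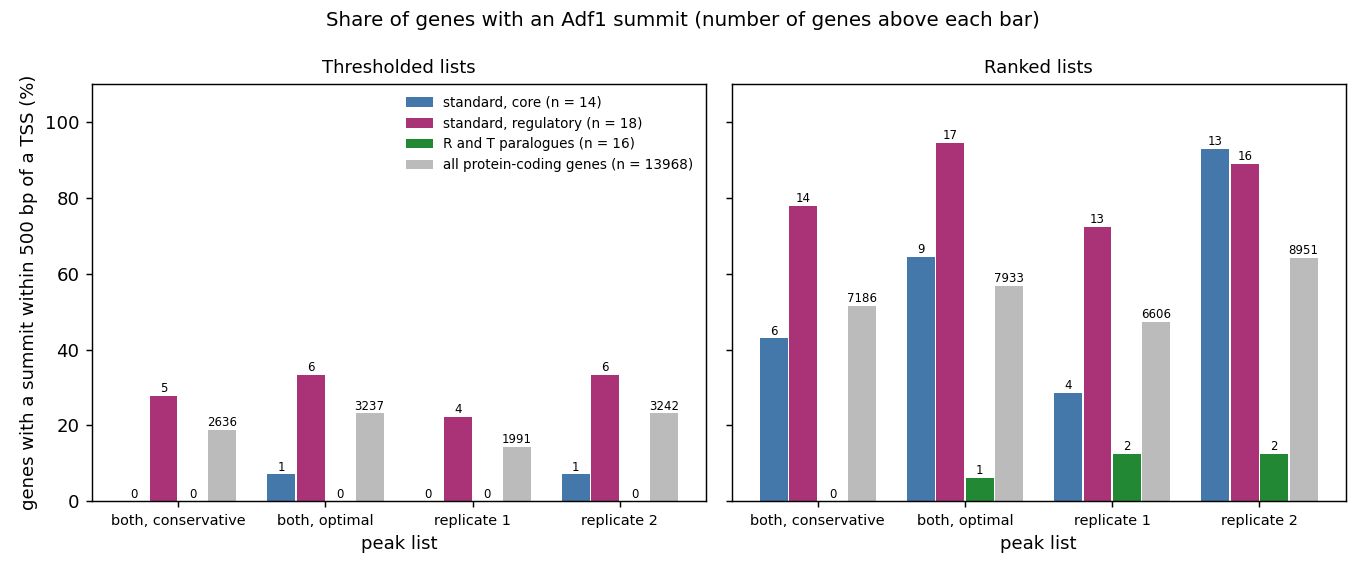
Percentage of genes with a summit within 500 bp of a TSS in thresholded lists (left) and ranked lists (right), with the number of genes above each bar. Standard regulatory genes run from 22.2 to 33.3% in thresholded lists and standard core genes from 0 to 7.14%, against 14.3 to 23.2% of all genes. In replicate 2's ranked list the shares are 88.9 and 92.9%, against 64.1% of all genes. In the other ranked lists standard regulatory genes run from 72.2 to 94.4% and standard core genes from 28.6 to 64.3%, against 47.3 to 56.8% of all genes.

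Within the ranked lists of the replicates, standard core genes had lower median signals than standard regulatory ones. In replicate 1 the 13 standard regulatory genes had a median signal of 31.1 and the 4 standard core genes one of 23.5, against 29.8 over all genes with a summit in range. In replicate 2 the medians were 39.0 for 16 regulatory genes, 22.8 for 13 core genes and 37.6 over all genes. With the paralogues included, replicate 1's medians were 27.5 over 14 regulatory genes, below that of all genes, and 21.9 over 5 core genes. Of the standard core genes, 0 of 4 in replicate 1 and 4 of 13 in replicate 2 were above the median of all genes, and of the standard regulatory genes 7 of 13 and 10 of 16. These medians cover genes with a summit only, and no test was made. Among paralogues, Prosalpha4T1 and Rpt6R had signals of 13.1 and 12.8 in replicate 1, and Prosbeta2R2 and Rpt3R of 25.8 and 28.5 in replicate 2.

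**Figure D4:**
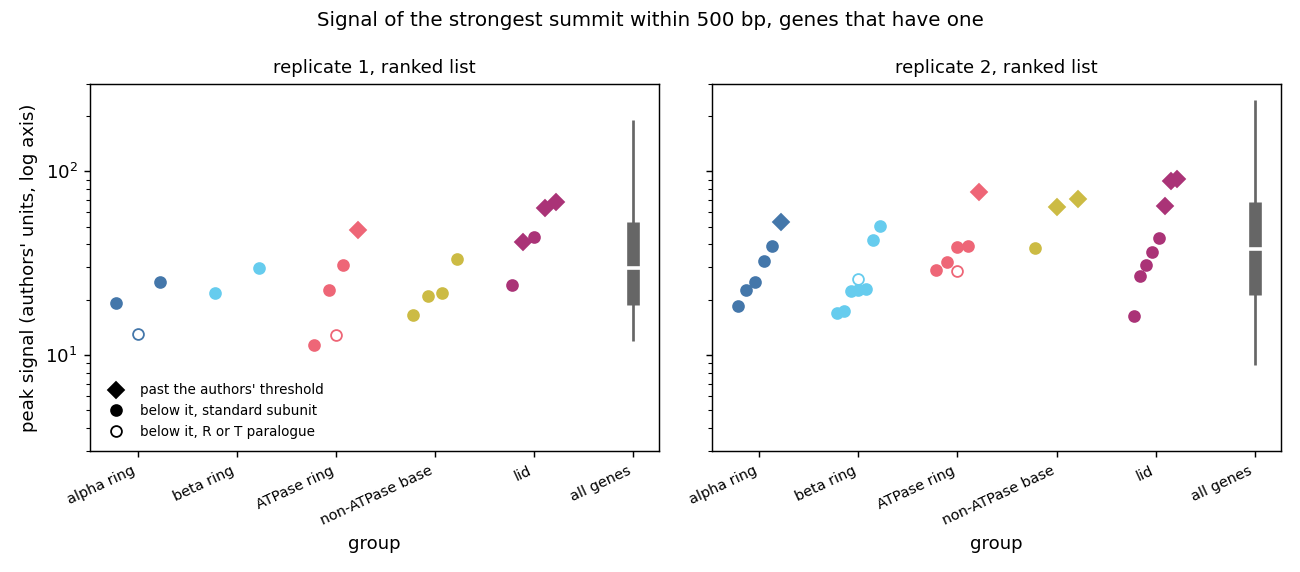
Signal of the strongest summit in range (log axis) in the ranked list of each replicate, for members with one, by subcomplex. Diamonds are past the authors' threshold, filled circles are standard subunits below it and open circles are R or T paralogues; the grey bar gives the 5th to 95th percentile of all genes with a summit, its thick part the quartiles and its white line the median. Points within a group are spread sideways in order of signal, and the highest lid point in replicate 2 is Rpn3 at 90.5.

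Most summits at called members also lay near the start of a divergent gene. For 8 of the 9 members called in any thresholded list, a start of another protein-coding gene also lay within 500 bp of the summit. The exception was Rpn1. In the conservative list this held for 4 of 5 members and for 43.0% of all bound genes. At Rpt5 the summit was 17 bp from the start of RanBP3, which encodes a Ran-binding protein, and 25 bp from that of Rpt5. At Rpn6 replicate 2's summit was nearer to the neighbour ave, a gene of the MAP kinase pathway (105 bp), than to Rpn6 (145 bp). At Rpn3 the neighbour l(2)37Bb was 169 bp away, and at Prosbeta2 the mitochondrial ribosomal protein gene mRpL39 was 166 bp away. A peak there cannot be assigned to either gene from position alone. Divergent starts were frequent among standard subunits whether bound or not: 20 of 32 had another gene's start within 500 bp of their outermost start, all on the opposite strand, of which 4 were bound. Among paralogues 3 of 16 had one, also on the opposite strand. Over all genes the share was 30.2% on either strand and 25.8% on the opposite strand.

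The sequences at the summits are shown for 4 of the 5 members with a conservative peak, and for Prosbeta2, to compare what lies under their highest points. Rpn6 is not shown. Each run is 101 bases centred on the summit, read 5' to 3' on the strand of the proteasome gene from the RefSeq Release 6 (dm6) sequence. Capitals mark matches to TATCGATA, the DNA replication-related element (DRE) found at many housekeeping promoters, or to GGTCACAC, part of the element bound by M1BP. Adf1-type triplets (GCNGCNGCN) were searched too and had no match in these windows.
Rpt5, chr3R:23752801-23752901, plus strand: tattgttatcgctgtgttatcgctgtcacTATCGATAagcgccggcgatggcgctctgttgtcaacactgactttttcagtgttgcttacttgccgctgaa
Rpn1, chr3L:19914966-19915066, plus strand: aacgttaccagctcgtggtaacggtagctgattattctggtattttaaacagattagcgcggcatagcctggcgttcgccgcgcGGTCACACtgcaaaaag
Rpn3, chr2L:19051731-19051831, plus strand: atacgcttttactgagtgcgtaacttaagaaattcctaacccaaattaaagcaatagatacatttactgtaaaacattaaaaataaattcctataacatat
Rpn9, chr3R:23733065-23733165, minus strand: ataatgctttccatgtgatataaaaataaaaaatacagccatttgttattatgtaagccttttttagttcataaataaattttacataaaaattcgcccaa
Prosbeta2, chr3L:14999782-14999882, plus strand: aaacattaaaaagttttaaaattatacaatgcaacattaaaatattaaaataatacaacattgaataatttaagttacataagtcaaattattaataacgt

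The 9 windows ranged from 14.9 to 50.5% G and C without a gap between groups. Those of Rpn1 and Rpt5 had 50.5 and 47.5% G and C, near the median of 47.5% over 2065 windows at the strongest summits of bound genes. Those of Rpn3, Rpn9 and Prosbeta2 had 25.7, 22.8 and 14.9%, below the lower quartile of 33.7%, as did those of Rpn13 (26.7%) and Rpn5 (31.7%). The windows of Rpn6 and Prosalpha7 had 37.6 and 39.6%. Over all 9 called members the median was 31.7%. None of the 9 windows held an Adf1-type triplet, and so none of the 5 from the conservative list. Of the 2065 windows, all from the conservative list, 16.2% held one on either strand. With so few members, a count of 0 does not show a lower share. Within 500 bp of the summit, 4 of the 9 had triplet matches, against 51.2% of bound genes' windows of that width. The nearest were 270 bp away at Prosbeta2, 291 bp at Rpn1, 375 bp at Rpt5 and 447 bp at Rpn9. A triplet match itself adds G and C to a window, and the part of base composition in these counts was not tested.

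The DRE match in the Rpt5 window was centred 17.5 bp from the summit, and such a match occurred in 2.95% of the 2065 windows. Rpn1's window held the GGTCACAC match, 37.5 bp from the summit, and 1.79% of those windows held one. Within 500 bp of the summit, DRE matches were also found at Rpn3 (88.5 bp away), Prosbeta2 (112.5 bp), Rpn13 (176.5 bp) and Rpn9 (317.5 bp), and 12.5% of bound genes' windows of that width had one. No DRE match lay within 500 bp of the summits at Rpn6, Rpn1, Rpn5 or Prosalpha7.

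In promoters, taken from 250 bases before to 50 bases after the outermost start, TATCGATA was found in 12 of 32 standard subunit genes (37.5%), 6 of them core and 6 regulatory, in none of 16 paralogues, and in 9.36% of all protein-coding genes. Of the 5 bound members 3 had a match (Rpn3, Rpn9 and Rpt5), and of the 27 standard subunits not bound 9 had one, among them Prosalpha3, Prosbeta1 and Rpn12. At Rpn6 and Rpn9 the conservative summit was near an internal start, outside the promoter taken here. GGTCACAC was found in 5 standard genes (Prosalpha2, Prosalpha4, Prosbeta3, Rpn1 and Rpn7) and 7.69% of all genes. Adf1-type triplets were found at 1 standard subunit, Rpn8, which was not bound, and at 1 paralogue, Prosbeta5R1, against 9.22% of all genes and 17.0% of bound genes. GAGAG, the core of GAGA factor sites, was found in 3 standard genes, in 6 paralogues and in 29.7% of all genes, and CAGCTG in 1 and 1 and in 17.6%. Matches are descriptions of these letters on both strands, the motifs were searched independently so that matches may overlap, and none was tested.

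Among genes that act with the proteasome, 5 of 19 partners and ubiquitin carriers were bound in the conservative list (26.3%, 95% Wilson interval 11.8 to 48.8%), against 18.9% of all genes, which lies inside that interval. The highest signal was 1076 at cnc, 210 bp from a start, with 236 in replicate 1 and 844 in replicate 2. The CncC protein of cnc is known in flies as an activator of proteasome genes. Whether that start belongs to a CncC transcript was not examined. Uch-L5, a deubiquitinase that docks on Rpn13, had a signal of 151, and Pomp, a chaperone of core assembly, had 112. Ubqn, a ubiquitin shuttle, had 93.7, and TER94, the p97 unfoldase, had 88.9. Their summits lay 72, 244, 466 and 343 bp from a start, in that order. For the bound proteasome genes these distances were 9 to 104 bp. Limits other than 500 bp were not tried for partners or other complexes. In the optimal list ntc and rngo were added, with 89.3 and 92.7. Among other complexes, the conservative list had a summit at 1 of 8 COP9 signalosome genes (CSN4, signal 85.1, 415 bp from a start). It had one at 0 of 8 CCT chaperonin genes, a count that allows up to 37.5%. It had one for 24.2% of 33 vacuolar ATPase genes, 24.7% of 73 mitochondrial and 48.9% of 92 cytosolic ribosomal protein genes. The ranked conservative list had a summit in range for 41.7% of the 48 proteasome genes, against 51.4% of all genes. Among standard proteasome genes alone that share was 62.5%. The same list had one for 5 of 8 COP9 signalosome genes, 6 of 8 CCT genes and 69.7% of vacuolar ATPase genes. For ribosomal protein genes the shares were 82.2% of mitochondrial and 87.0% of cytosolic ones. These complexes were taken by symbol prefix with any paralogues kept, so 41.7% is the like figure for the proteasome. These shares are descriptions, and no difference between the complexes was tested.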

How the data were processed

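ChIP-seq peaks of 2 biological replicates were used as deposited on dm6. Per the labels, sonicated fragments were 200 to 800 bp. Per the deposited file lists, the authors derived the peaks from dm6 alignments and a further file those lists do not describe. The sources used here name neither aligner nor peak caller. The authors' deposited values used here were, per peak, a signal of unstated scale, a scaled IDR score and a summit offset. The thresholded lists held 4370 (conservative), 5607 (optimal), 3127 (replicate 1) and 6003 (replicate 2) summits; each lay wholly in its ranked list with the same scores, by which the ranked lists were identified. Depth is unknown.

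Start sites came from Ensembl release 115 and sequence from RefSeq, both on Release 6. Summits on 7 arms were kept, with no filter on signal. The strongest summit within 500 bp represents a gene. No test was made: counts stand beside the share of all genes. Members, lists and motifs were chosen with earlier results of these data known. Every member in any thresholded list was named, with the 5 of highest ranked conservative signal among the rest. Of 20 partner symbols 19 matched (Ufd1-like did not). The code that assigns summits was run on simulated summits placed at known distances from genes with a single TSS. That run checks the counting only, and not whether a peak belongs to a gene. Software was Matplotlib 3.10.9, SciPy 1.17.1 (Wilson intervals), NumPy 2.4.6 and Python 3.11.15.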

Additional observations from a re-analysis of the deposited data

How the results depend on the processing

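The 5 genes bound in the conservative list were also bound with a limit of 200 or 1000 bp, with the peak interval over a start in place of the summit, and with RefSeq starts or with 163 further ranked peaks of equal or higher score than its lowest put back, both added after seeing the data. Rpn6 was lost with outermost starts alone and Rpt5, whose summit is nearer to RanBP3, with the nearest gene alone, which left 4 each. With the stronger part of the list by signal, 1 member was bound, Rpn6, and so 1 regulatory and 1 standard gene. With all ranked conservative summits 20 were bound, all of them standard, of which 14 were regulatory and 6 core. In the optimal list 1 core gene was bound. With either replicate left out, 4 to 7 members and as many standard genes were bound, 4 to 6 regulatory and 0 to 1 core. No paralogue was bound under any of these 12 alternatives. No paired analysis was possible because the labels give 1 group. Peak lists without read counts limit what can be said of unbound genes: a gene without a peak is not shown to be free of Adf1.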
